A study of Mus musculus with 12 samples.

Results

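The Hox genes are the 33 mouse genes whose symbol is Hox followed by a cluster letter from a to d and a number and that had a probe set annotated to that symbol alone. They were taken from 18194 named genes on the array. Where a gene had several such probe sets, the one with the highest mean over the 12 arrays was used. RefSeq lists 39 Hox genes in the mouse, and 33 of them were measured in this way. The Hoxa cluster on chromosome 6 contributed 9 of its 11 genes, the Hoxb cluster on chromosome 11 contributed 9 of 10, the Hoxc cluster on chromosome 15 contributed 7 of 9 and the Hoxd cluster on chromosome 2 contributed 8 of 9. The genes were chosen by their symbols and not by their values, though with earlier results of these data known. Only the choice among probe sets used values, namely the mean over the 12 arrays.

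Hox genes encode homeodomain transcription factors that give cells their position along the head-to-tail axis of the embryo. Genes at one end of each cluster, with low numbers, act in the hindbrain and neck, and genes at the other end, with high numbers, act in the lower trunk, limbs and genital region, so that the order on the chromosome follows the order along the body. Fibroblasts, marrow stroma and fat depots of the adult keep a pattern of Hox expression that depends on where in the body they come from, and Polycomb and trithorax proteins are known to hold genes of the clusters silent or active.

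RNA was measured on Affymetrix mouse genome arrays in fat cells made from 2 mouse lines, with 3 biological replicates in each of 4 groups. ST2 is a stromal line from mouse bone marrow (strain given as BC8). It was infected with a retrovirus that carried the human SRA isoform 2 cDNA (pMSCV-SRA) or with the empty pMSCV vector, and infected cells were selected with puromycin. 3T3-L1 is a line of fibroblast-like preadipocytes from Swiss albino mice. It carried the retroviral vector pSuperior with either a hairpin that targets the mouse SRA transcript (pSuperior-shSRA-2) or a control, pSuperior-shcontrol, which the sample labels describe as an empty vector. SRA is the steroid receptor RNA activator, a noncoding RNA that acts with nuclear receptors. Both lines were differentiated with a hormone mixture called MDIT, which contained 5 µM troglitazone, 0.167 µM insulin, 1 µM dexamethasone and 0.5 mM methylisobutylxanthine. RNA came from day 4 of this treatment in ST2 and from day 8 in 3T3-L1 adipocytes. Each line stands for 1 established cell line and not for a tissue. In the comparison of the lines, the line, its growth medium, its vector and the day of harvest change together and cannot be told apart.

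The deposited values are log2 expression values after quantile normalization. The medians of the arrays lay close together, which that step brings about by itself, so they are no check of the arrays. Adipocyte markers were above the reference level described further on for 9 of 9 genes in every group. Sra1, the mouse gene for SRA, read 11.86, 11.67 and 11.84 on the log2 scale in shControl and 9.46, 9.20 and 9.62 in shSRA 3T3-L1 adipocytes, a log2 difference of -2.36 (limma adjusted p = 5.58e-07). In ST2 the difference was 0.22 and did not pass, and a mouse probe set need not read the human cDNA, so it does not check the overexpression. Over the 14314 bright probe sets, those averaging 8 or more in log2 units, replicate 2 of the ST2 controls differed from the mean of the other 2 replicates by a median of -0.43 on the log2 scale, whereas over the Hox genes this median was 0.01. The Hox median covers genes of any level and deviations in both directions. On this array Hoxa5 read 10.17 against 8.18 and 8.30 on the other control arrays, whereas Hoxb5 read 4.99 against 5.76 and 5.98. Such a median is therefore no check of this array for single Hox genes. The values of Hox genes and lists that moved most when this array was left out are given without it beside the result, a check chosen after seeing the data.

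For 19 of the 33 Hox genes the RefSeq promoter table (GRCm38.p6) held 21 promoters, each running from 250 bases before to 50 bases after a transcription start. The genes with no matching entry were Hoxa4, Hoxb2, Hoxb3, Hoxb5, Hoxb6, Hoxb7, Hoxb9, Hoxb13, Hoxc5, Hoxc6, Hoxc8, Hoxc9, Hoxc10 and Hoxc13. The promoters of the adjacent Hoxd8 and Hoxd9 and of the adjacent Hoxa9 and Hoxa10 are shown because these genes differed most between the lines among the genes in that table, Hoxd8 and Hoxd9 being higher in 3T3-L1 and Hoxa9 and Hoxa10 in ST2 adipocytes. They are written 5′ to 3′ on the strand of the gene, with each CpG, the dinucleotide at which DNA is methylated, in capitals. Hoxd8 lies at chr2:74704365-74704664 and Hoxd9 at chr2:74697513-74697812, both on the plus strand. Hoxa9 lies at chr6:52227321-52227620, and Hoxa10 has starts at chr6:52234890-52235189 and further upstream at chr6:52240805-52241104, all on the minus strand.
Hoxd8: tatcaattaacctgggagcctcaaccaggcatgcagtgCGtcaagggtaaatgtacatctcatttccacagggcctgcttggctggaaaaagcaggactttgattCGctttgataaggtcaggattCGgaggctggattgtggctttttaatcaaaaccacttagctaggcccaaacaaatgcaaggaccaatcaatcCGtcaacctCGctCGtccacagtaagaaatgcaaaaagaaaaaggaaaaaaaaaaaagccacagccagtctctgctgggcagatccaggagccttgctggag
Hoxd9: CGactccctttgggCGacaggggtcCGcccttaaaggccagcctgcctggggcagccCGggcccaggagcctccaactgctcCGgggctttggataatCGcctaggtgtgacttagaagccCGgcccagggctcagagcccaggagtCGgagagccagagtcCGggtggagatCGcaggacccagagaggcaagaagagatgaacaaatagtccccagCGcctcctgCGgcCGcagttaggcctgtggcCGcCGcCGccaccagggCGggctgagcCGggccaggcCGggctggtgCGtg
Hoxa9: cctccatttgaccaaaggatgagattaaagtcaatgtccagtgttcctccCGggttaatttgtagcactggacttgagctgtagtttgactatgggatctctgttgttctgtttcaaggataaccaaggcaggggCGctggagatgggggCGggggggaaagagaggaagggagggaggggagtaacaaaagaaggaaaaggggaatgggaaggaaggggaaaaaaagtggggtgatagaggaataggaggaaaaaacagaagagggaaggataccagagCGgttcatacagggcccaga
Hoxa10, downstream start: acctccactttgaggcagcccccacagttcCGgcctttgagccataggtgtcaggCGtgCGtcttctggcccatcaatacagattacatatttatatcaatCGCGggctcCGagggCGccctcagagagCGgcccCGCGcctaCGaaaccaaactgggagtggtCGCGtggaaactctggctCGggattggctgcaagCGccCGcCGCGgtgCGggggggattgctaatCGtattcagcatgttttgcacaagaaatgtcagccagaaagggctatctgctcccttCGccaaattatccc
Hoxa10, upstream start: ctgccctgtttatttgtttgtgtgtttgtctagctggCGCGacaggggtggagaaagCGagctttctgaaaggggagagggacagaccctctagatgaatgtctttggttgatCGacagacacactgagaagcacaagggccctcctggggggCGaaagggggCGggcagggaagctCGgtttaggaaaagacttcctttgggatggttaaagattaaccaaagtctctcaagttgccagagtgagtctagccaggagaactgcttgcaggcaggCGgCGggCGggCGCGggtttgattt
The Hoxd8 promoter held 6 CpG and that of Hoxd9 held 20, and the Hoxa9 promoter held 4 against 21 and 12 in those of Hoxa10. So neither the pair higher in 3T3-L1 nor the pair higher in ST2 adipocytes was alike in CpG number. Over the 21 Hox promoters the median was 15 CpG with a range from 4 to 45, whereas over 32851 promoters of all genes the median was 7, and 18 of the 21 were above it. The motif TGATTNAT, read by Hox proteins together with Pbx partners, was searched on both strands and found in 9.52% of Hox promoters (those of Hoxa2 and Hoxd11) and in 3.22% of all promoters. The letters TATAAA, those of a TATA box, were searched on both strands as well and found in 9.52% of Hox promoters (the downstream start of Hoxa10, on the strand opposite to the gene, and Hoxd13) and in 13.6% of all.

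To describe which Hox genes were read above background, a reference level was set at the 95th percentile of the mean log2 values of 80 probe sets for olfactory and vomeronasal receptors, which was 6.18. No detection calls were used, and 54.9% of all probe sets lay above this level. The mean of 18 Hox genes was above it in both ST2 groups and that of 13 in both 3T3-L1 groups. All 7 Hoxc genes were above it in ST2 and 2 of 7, Hoxc6 and Hoxc9, in 3T3-L1 adipocytes. In the Hoxd cluster the order was turned, with 1 of 8 genes above it in ST2, which was Hoxd9, and 3 of 8 in 3T3-L1 adipocytes, which were Hoxd3, Hoxd8 and Hoxd9.

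The 11 genes above the level in all groups were Hoxa3, Hoxa4, Hoxa5, Hoxa7, Hoxa9, Hoxb2, Hoxb3, Hoxb4, Hoxc6, Hoxc9 and Hoxd9. The 7 genes above it in the ST2 groups only were Hoxa10, Hoxb6, Hoxc4, Hoxc5, Hoxc8, Hoxc10 and Hoxc13, and the 2 in the 3T3-L1 groups only were Hoxd3 and Hoxd8. The other 13 were above it in no group. They included the ends of the clusters, Hoxb1 and Hoxd1 on the anterior side and Hoxa11, Hoxa13, Hoxb13, Hoxd10, Hoxd11, Hoxd12 and Hoxd13 on the posterior side, as well as Hoxa2, Hoxb5, Hoxb7 and Hoxb9. A value under the level is a bound set by the array and does not show that a gene was silent. Thus 22 of the 33 genes were under it in at least one line, and where only one line is under it, as for Hoxc10, Hoxc8, Hoxa10, Hoxc13 and Hoxd8, the size of the difference between the lines is limited by the array. With the 99th percentile, 7.13, as the level, the counts were 12 in control and 13 in SRA ST2 adipocytes and 11 in each 3T3-L1 group.

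**Figure D1:**
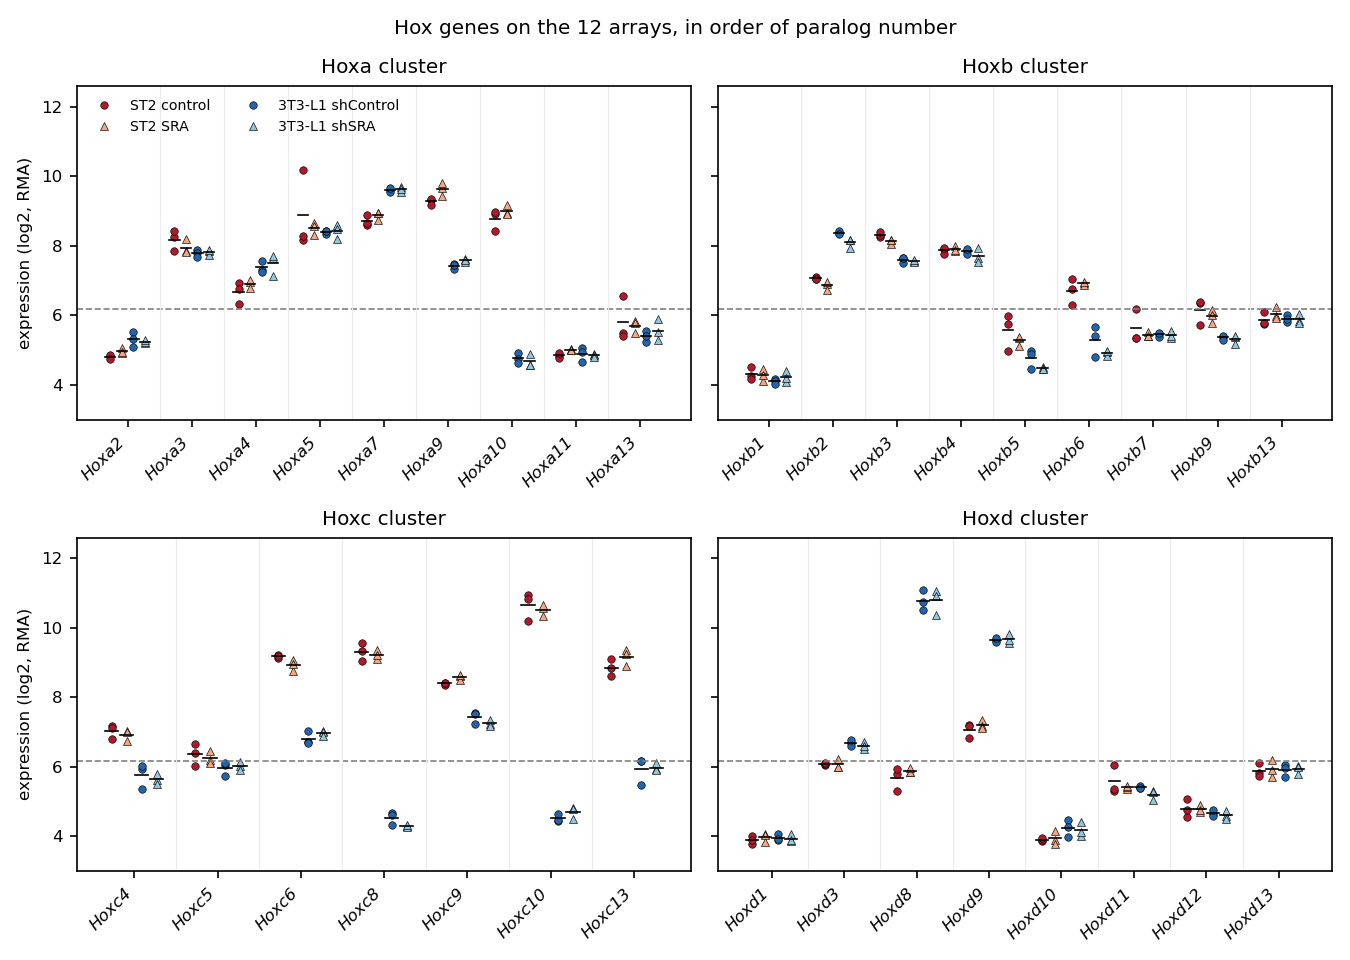
Expression of the 33 Hox genes (log2, RMA values) on each of the 12 arrays, in 4 panels by cluster and from the lowest to the highest paralog number, with a point per array, a short black line at each group mean and the reference level of 6.18 as a dashed line. The ST2 arrays (red and pink) lie above the 3T3-L1 arrays (dark and light blue) from Hoxc4 to Hoxc13 except at Hoxc5, and the 3T3-L1 arrays lie above at Hoxd8 and Hoxd9.

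The first comparison asked how the Hox pattern differed between control ST2 and shControl 3T3-L1 adipocytes. Of the 33 Hox genes, 12 were higher in ST2 and 7 were lower, and 14 did not pass (limma, adjusted p under 0.05). Among those that passed, Hoxa2, Hoxb5 and Hoxb9 had means under the reference level in every group. Over all 45101 probe sets, 27.7% passed, 11.2% as higher and 16.6% as lower in ST2. The median difference of the Hox genes was 0.21 on the log2 scale and that of all probe sets was -0.02. All 6 Hoxc genes that passed were higher in ST2 and all 3 Hoxd genes that passed were lower. The Hoxa cluster held 2 higher and 3 lower, and the Hoxb cluster 4 higher and 1 lower. By position, 1 of 7 anterior genes (numbers 1 to 3) was higher and 3 were lower, 5 of 12 central genes (4 to 8) were higher and 3 were lower, and 6 of 14 posterior genes (9 to 13) were higher and 1 was lower. Without replicate 2 of the ST2 controls the counts were again 12 and 7.

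Hoxc10, which patterns the lumbar region and the hindlimb, showed the largest difference of the 33 with the probe sets used. Its log2 values were 10.95, 10.20 and 10.83 in control and 10.57, 10.33 and 10.66 in SRA ST2 adipocytes. In 3T3-L1 adipocytes they were 4.45, 4.48 and 4.63 with shControl and 4.51, 4.81 and 4.80 with shSRA. The lowest ST2 array was thus far above the highest 3T3-L1 array, and the difference between control lines was 6.14 ± 0.17 (SE, limma adjusted p = 2.23e-12). Hoxc8, a gene of the thoracic region that is also known in white fat precursors, had values of 9.56, 9.05 and 9.34 in control and 9.37, 9.11 and 9.23 in SRA ST2 adipocytes. With shControl it had 4.33, 4.66 and 4.61 and with shSRA 4.31, 4.28 and 4.32. The groups of the lines did not overlap, and the difference was 4.79 ± 0.14 (limma adjusted p = 2.62e-12).

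Hoxc13, the last gene of its cluster and a regulator of hair and nail keratins, had values of 9.11, 8.60 and 8.84 in control and 9.35, 9.25 and 8.91 in SRA ST2 adipocytes. In 3T3-L1 adipocytes it had 6.18, 6.18 and 5.49 with shControl and 5.94, 5.90 and 6.10 with shSRA. Each ST2 array was above each 3T3-L1 array, by 2.90 ± 0.19 in the controls (limma adjusted p = 1.71e-08). Hoxc6, a thoracic gene, had values of 9.22, 9.14 and 9.19 in control and 9.09, 8.77 and 8.97 in SRA ST2 adipocytes. It had 6.73, 7.02 and 6.69 with shControl and 7.04, 7.00 and 6.88 with shSRA, so it was higher in ST2 by 2.37 ± 0.12 (limma adjusted p = 1.09e-09) while above the reference level in both lines. Of the other Hoxc6 probe sets, one gave 2.33 and passed. It has the suffix by which Affymetrix marks probes that may be shared with other sequences. The other gave 0.32 and did not pass, with means of 7.03 in control ST2 and 6.71 in shControl 3T3-L1 adipocytes, both above the reference level. Of the rest of the cluster, Hoxc4 differed by 1.27 and Hoxc9 by 0.97, and both passed. Hoxc5 differed by 0.40, with a 95% interval from 0.05 to 0.74, and was 0.25 without replicate 2 of the ST2 controls, and neither passed, whereas its other probe sets, with lower means, passed at 1.36 and 0.72.

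In the Hoxa cluster the direction changed between Hoxa7 and Hoxa9, neighbours among the measured genes. Hoxa10, which patterns the lumbar vertebrae and the uterus, had values of 8.92, 8.44 and 8.99 in control and 8.95, 8.91 and 9.19 in SRA ST2 adipocytes. With shControl it had 4.92, 4.75 and 4.64 and with shSRA 4.58, 4.90 and 4.58. The lines did not overlap, and the difference in the controls was 4.01 ± 0.15 (limma adjusted p = 5.8e-11). Hoxa9, known from blood stem cells and leukaemia as well as from the posterior trunk, had values of 9.32, 9.36 and 9.18 in control and 9.67, 9.82 and 9.43 in SRA ST2 adipocytes. It had 7.34, 7.48 and 7.46 with shControl and 7.55, 7.62 and 7.59 with shSRA, again without overlap of the lines, and a difference of 1.86 ± 0.11 (limma adjusted p = 1.06e-08). The other Hoxa9 probe set gave a mean of 11.42 in control ST2 and 4.92 in shControl 3T3-L1 adipocytes, so that its difference was 6.51 where the probe set used gave 1.86. The other Hoxa10 probe set had means of 4.48 and 4.37 in these groups and differed by 0.11, which did not pass.

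On the anterior side of this cluster 3 genes were lower in ST2, Hoxa7 with a difference of -0.89, Hoxa4 with -0.71 and Hoxa2, a gene of the hindbrain and the pharyngeal arches, with -0.50. The group means of Hoxa2 were all under the reference level. Hoxa3, which forms thymus and parathyroid, differed by 0.39 and did not pass. Its other probe sets gave -0.35, 0.04 and -0.30, and none of them passed. Hoxa5, known in lung and in fat, read 8.18, 10.17 and 8.30 in control ST2 and 8.35, 8.43 and 8.44 in shControl 3T3-L1 adipocytes, so that replicate 2 of the ST2 controls alone stood high. Its difference was 0.47 with this array and -0.17 without it, and neither passed. The probe set used has the suffix by which Affymetrix marks probes that may be shared with other sequences. The other Hoxa5 probe set has no such suffix and was lower in ST2, with a difference of -0.75 (limma adjusted p = 9.8e-05). Hoxa11, which forms the forearm and shank, differed by -0.04 and did not pass. Hoxa13, which forms the hand and foot, read 5.50, 6.56 and 5.41 in control ST2 adipocytes, and its difference of 0.42, which did not pass, was 0.06 without replicate 2.

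Hoxd8 showed the largest difference in the opposite direction. Its values were 5.80, 5.94 and 5.30 in control and 5.86, 5.86 and 5.97 in SRA ST2 adipocytes, all under the reference level. In 3T3-L1 adipocytes they were 11.08, 10.74 and 10.50 with shControl and 11.06, 10.37 and 10.93 with shSRA. The difference in the controls was -5.09 ± 0.20 (limma adjusted p = 7.07e-11), and the other Hoxd8 probe set gave -5.07. Hoxd9, its neighbour, had values of 7.21, 6.85 and 7.16 in control and 7.35, 7.17 and 7.12 in SRA ST2 adipocytes. It had 9.67, 9.60 and 9.72 with shControl and 9.58, 9.64 and 9.81 with shSRA, so it was read above the reference level in both lines and was lower in ST2, with a difference of -2.59 ± 0.12 (limma adjusted p = 4.91e-10). Hoxd3 differed by -0.61 and passed. Hoxd1 and the posterior genes Hoxd10, Hoxd11, Hoxd12 and Hoxd13, which pattern the limb and the digits, had group means under the reference level and differed by -0.34 to 0.17, and none of them passed. The highest of these, Hoxd11, was at -0.07 without replicate 2 of the ST2 controls.

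The Hoxb cluster showed smaller differences. Hoxb6 had values of 7.04, 6.29 and 6.76 in control and 6.94, 6.86 and 6.96 in SRA ST2 adipocytes. It had 4.81, 5.40 and 5.67 with shControl and 4.95, 4.83 and 4.98 with shSRA, below each ST2 array, and the difference was 1.40 ± 0.20 (limma adjusted p = 7.2e-05). Hoxb2, a gene of the hindbrain, was the 1 gene of the cluster that was lower in ST2. It had values of 7.10, 7.06 and 7.05 in control and 6.91, 6.73 and 6.97 in SRA ST2 adipocytes. With shControl it had 8.36, 8.42 and 8.34 and with shSRA 8.17, 8.18 and 7.95, so the lines did not overlap, and the difference was -1.31 ± 0.11 (limma adjusted p = 2.24e-07). Hoxb3 differed by 0.71, Hoxb5 by 0.81 and Hoxb9 by 0.79, and all 3 passed. The group means of Hoxb5 and Hoxb9 were all under the reference level. Hoxb4, which expands blood stem cells when supplied to them, was above the reference level in every group and differed by 0.02, with a 95% interval from -0.22 to 0.27. Hoxb1, Hoxb7 and Hoxb13 differed by 0.21, 0.17 and -0.03, or by 0.10, -0.11 and -0.15 without replicate 2 of the ST2 controls, and did not pass.

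The same question was put to the perturbed groups, SRA ST2 against shSRA 3T3-L1 adipocytes, on 6 arrays that the comparison of the controls does not hold, though the fit estimates 1 spread per probe set from all 12 arrays. Here 12 Hox genes were higher in ST2 and 6 were lower, against 23.0% of all probe sets that passed, 11.0% as higher and 12% as lower. The median difference of the Hox genes was 0.16 and that of all probe sets was 0.05. All 18 of these genes had passed in the controls in the same direction, and Hoxa2 passed in the controls only, with -0.27 in the perturbed groups. Hoxc10 differed by 5.81, Hoxc8 by 4.93, Hoxa10 by 4.33, Hoxd8 by -4.89 and Hoxd9 by -2.46. Across the 33 genes the differences of the pair of comparisons correlated with Pearson's r of 0.99 and Spearman's rho of 0.95, and genes of a cluster are not independent of each other.

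**Figure D2:**
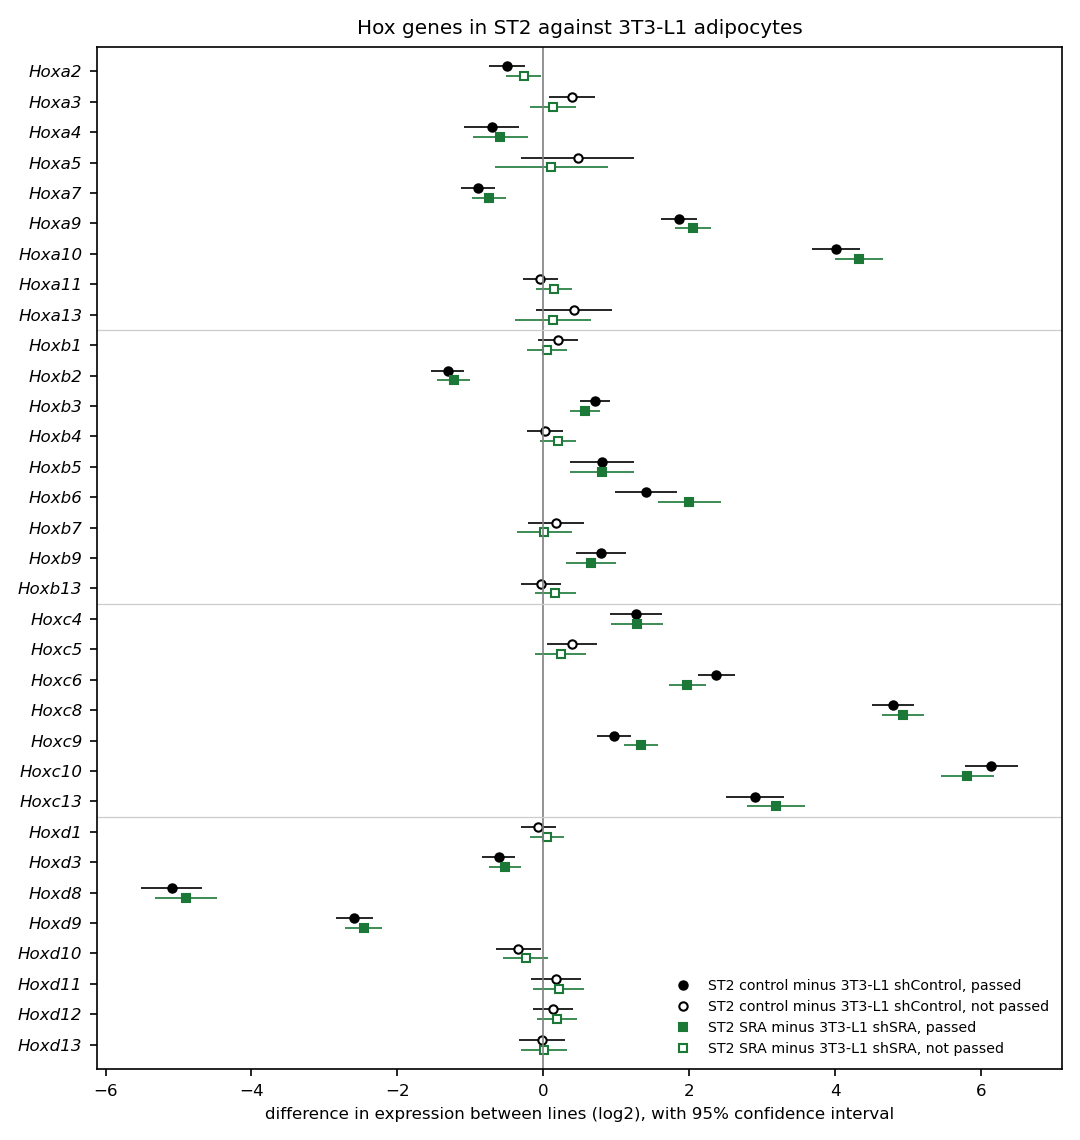
Difference in expression between ST2 and 3T3-L1 adipocytes (log2, with 95% confidence intervals) for each Hox gene in cluster order, with circles for the control groups and squares for SRA ST2 against shSRA 3T3-L1, filled where the gene passed. Hoxc10 lies farthest to the right at 6.14 and Hoxd8 farthest to the left at -5.09. Both sets of symbols lie close together for most genes, with a wider gap at Hoxb6, at 1.40 in the controls and 2.00 in the perturbed groups.

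Markers of other cell states were compared between the lines as well. Their counts stand beside the 11.2% of all probe sets that were higher and the 16.6% that were lower in control ST2. A share near these is no result about the markers, and no difference in share was tested. All 7 mitotic genes were higher in control ST2 than in shControl 3T3-L1 adipocytes, with summed linear levels of 2441 to 4138 against 542 to 620. Between SRA ST2, at 822 to 1332, and shSRA 3T3-L1 adipocytes, at 573 to 716, 3 of 7 passed, or 1 of 7 without replicate 1 of SRA ST2. Of 11 preadipocyte and fibroblast markers, 2 were higher and 6 were lower in control ST2, with Dlk1 at -6.46 and Dcn, which encodes decorin, at -6.29. Thy1, Dlk1 and Lum were not above the reference level in the ST2 groups, and the summed levels were 31394 to 43006 in control ST2 and 43574 to 49207 in shControl 3T3-L1 adipocytes. Of 10 bone marrow stroma markers, 8 were higher in control ST2 and none was lower, among them Grem1 at 2.73 and Kitl, a stem cell factor, at 2.40, with summed levels of 30611 to 39128 against 11269 to 12818. Of 9 adipocyte markers 6 were lower in control ST2, with summed levels of 91937 to 120687 against 138872 to 153284. In SRA ST2 and shSRA 3T3-L1 adipocytes the summed levels were 20979 to 23680 and 37440 to 40716 for the preadipocyte and fibroblast markers, 22853 to 28632 and 9921 to 13224 for the marrow stroma markers and 124292 to 130323 and 147603 to 154359 for the adipocyte markers. Of 11 blood cell and macrophage markers 1 passed, with summed levels of 1144 to 1300 against 861 to 1074, and Ptprc, Cd79a, Itgam, Adgre1 and Ms4a1 were not above the reference level in any group. None of 8 endothelial markers passed, with summed levels of 332 to 389 against 326 to 384. The part of these markers in the Hox differences was not tested, and in RNA from whole cultures fewer cells of a type and less RNA per cell cannot be told apart.

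Genes that work with or around the Hox clusters were taken from lists of textbook members. Their counts are to be read beside the 11.2% of all probe sets that were higher and the 16.6% that were lower in ST2, and a share near these is no result about a list. No difference between a list's share and this background was tested. Of 5 measured noncoding RNAs and Evx genes inside the clusters, 1 passed. Hoxd3os1, an antisense RNA of the Hoxd cluster, had values of 5.02, 4.93 and 4.64 in control ST2 and 8.66, 8.34 and 8.56 in shControl 3T3-L1 adipocytes, a difference of -3.66 (limma adjusted p = 5.29e-11). Thus the RNAs of the Hoxd cluster that passed, Hoxd3, Hoxd3os1, Hoxd8 and Hoxd9, were all higher in 3T3-L1 adipocytes. The array targets were not examined by strand. Of 16 measured genes that flank the clusters, none was higher and 8 were lower in ST2, with a median of -0.43, Cbx5 at -1.04 and Calcoco1 at -0.85. Both of these flank the Hoxc cluster, of which 6 of 7 genes were higher in ST2.

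Of 8 measured TALE homeodomain genes, whose products bind DNA with Hox proteins, 3 were lower in ST2 and none was higher, with Meis2 at -1.24 and Pbx2 at -0.68. Of 11 genes of Polycomb repressive complex 2, which lays down the repressive mark on histone H3, 3 were lower, with Jarid2 at -2.30 and Mtf2 at -0.76. Jarid2, which helps to recruit the complex, had values of 8.39, 8.13 and 8.44 in control ST2 and 10.79, 10.55 and 10.52 in shControl 3T3-L1 adipocytes, without overlap (limma adjusted p = 7.18e-09). Of 18 genes of Polycomb repressive complex 1, 2 were higher and 5 were lower, with Pcgf5 at -0.92 and Phc2 at 0.91. Of 12 genes of the trithorax group and the demethylases that act against Polycomb, 5 were lower and none was higher, with Kmt2c, a histone methyltransferase, at -1.41.

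Retinoic acid is known to switch on anterior Hox genes in the embryo. Of 16 genes that make, break down or bind it, 3 were higher and 3 were lower in ST2. The retinal-forming enzyme gene Rdh10 differed by 1.34 and the receptor gene Rarg by 1.02, whereas Aldh1a1, which makes retinoic acid, differed by -1.52 and the receptor gene Rxra by -0.81. Of 8 upstream patterning genes 1 was higher and 1, Tbx6, was lower at -0.87. The higher gene was Egr2, which read 5.52, 5.93 and 8.06 in control ST2 adipocytes, so that replicate 3 alone was above the reference level. Its difference was 1.73 (limma adjusted p = 0.0329) and 0.95 without that array (limma adjusted p = 0.147). Egr2 also did not pass when any one of the shControl arrays was left out. Of 43 homeobox and T-box genes outside the clusters that mark position, 8 were higher and 5 were lower, with a median of -0.02. Pitx1, which specifies the hindlimb, had values of 8.57, 8.15 and 8.54 in control ST2 and 6.14, 5.85 and 6.30 in shControl 3T3-L1 adipocytes, a difference of 2.32 (limma adjusted p = 1.17e-08). Emx2, of the forebrain and urogenital tract, differed by 2.23, En1, of the midbrain and the ventral limb, by -2.25, and Irx3 by -1.47. The group means of En1 were all under the reference level.

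Some of these list counts moved when replicate 2 of the ST2 controls was left out, where 15.3% of all probe sets were higher and 14.5% were lower. Without it 3 TALE genes were higher and 2 lower, 7 genes of Polycomb repressive complex 1 were higher and 5 lower, and 1 of the trithorax list was higher and 3 lower. Of the 43 positional genes 7 were then higher and 3 lower, 2 of 11 genes of Polycomb repressive complex 2 were lower, and 8 of 16 flanking genes were lower. The marker counts in that fit were 7 of 7 mitotic genes higher, 9 of 10 marrow stroma markers higher, 2 of 11 fibroblast markers higher and 5 lower, 5 of 9 adipocyte markers lower and 1 of 8 endothelial markers lower.

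**Figure D3:**
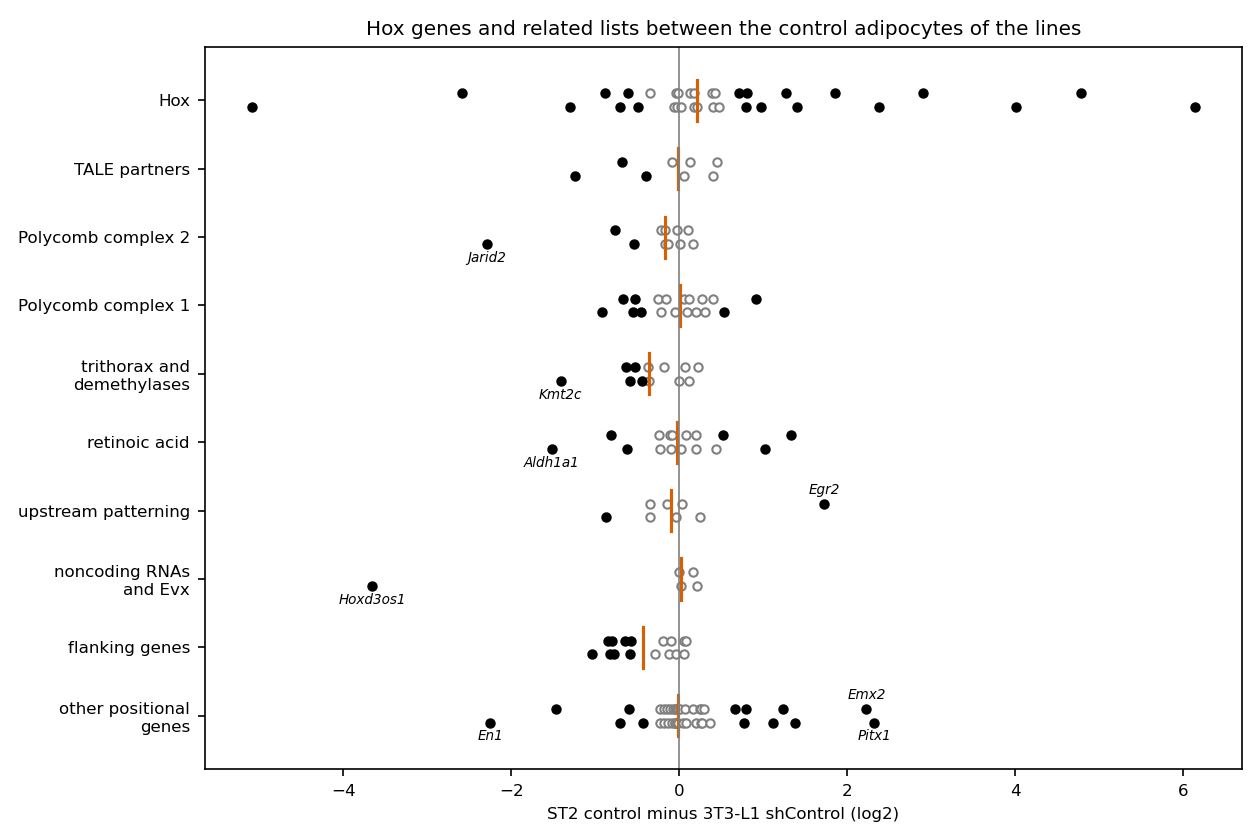
Difference between control ST2 and shControl 3T3-L1 adipocytes (log2) for each Hox gene and each measured gene of 9 related lists, with filled points for genes that passed, open points for the others and an orange line at the median of each list. The Hox genes run from -5.09 to 6.14, and among the other lists Hoxd3os1 lies farthest to the left at -3.66 and Pitx1 farthest to the right at 2.32.

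The study's own comparisons asked what SRA does in each line. In SRA minus control ST2 adipocytes, 0 of 33 Hox genes passed in limma's test at an adjusted p of 0.05, beside 7.98% of the 19068 probe sets tested. Among so few genes a count of 0 is not read as a result about Hox genes, and the difference in share was not tested. Of the Hox genes, 25 had a variance over the arrays above 0.05 and were tested, and 1 of these had an unadjusted p under 0.05. The other 8, Hoxa11, Hoxb1, Hoxb4, Hoxb13, Hoxd1, Hoxd10, Hoxd12 and Hoxd13, were not tested and count as not passing, and with all probe sets tested, or with limma's nested F classification, the count was 0 as well. The median difference of the Hox genes was 0.01 on the log2 scale against 0.07 for all probe sets, and single genes ranged from -0.35 for Hoxa5 to 0.35 for Hoxa9. The 95% intervals, from the fit to all probe sets, reached from -1.13 for Hoxa5 to 0.71 for Hoxc13. The value of Hoxa5 rests on replicate 2 of the ST2 controls, and without that array it was 0.29, the median of the Hox genes was 0.07 and single genes ranged from -0.59 for Hoxb5 to 0.39 for Hoxa9.

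The gene with the unadjusted p under 0.05 was Hoxa9, whose values were 9.67, 9.82 and 9.43 with SRA and 9.32, 9.36 and 9.18 without. The groups did not overlap, and the difference of 0.35 had a 95% interval from 0.11 to 0.60 in the fit to all probe sets. In the fit to those above the variance minimum, its SE was 0.15, its unadjusted limma p 0.0317 and its adjusted p 0.176. The other Hoxa9 probe set also gave 0.35 and did not pass. For 7 of the 33 genes the SRA and control arrays did not overlap, namely Hoxa2, Hoxa9, Hoxa11 and Hoxc9 with SRA above and Hoxb2, Hoxb3 and Hoxc6 with SRA below, beside 17.2% of all 45101 probe sets whose arrays did not overlap. Hoxc10 differed by -0.14, Hoxc8 by -0.09, Hoxa10 by 0.24, Hoxd8 by 0.21 and Hoxd9 by 0.14, and none of them passed. Without replicate 2 of the ST2 controls these differences were -0.37, -0.22, 0.06, 0.34 and 0.03, and again none passed.

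One of the 15 Hox probe sets that were not used passed in ST2. It was the other probe set of Hoxb3, with a difference of -0.63 (limma adjusted p = 0.0194), where the probe set used gave -0.19. Hoxb5 passed once replicate 2 of the ST2 controls was left out, at -0.59 (limma adjusted p = 0.0239) against -0.30 with it. Its values were 5.76, 4.99 and 5.98 in control and 5.35, 5.11 and 5.38 in SRA ST2 adipocytes, all under the reference level.

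In shSRA minus shControl 3T3-L1 adipocytes, 0 of 33 Hox genes passed in limma's test, beside 0.0734% of the probe sets tested, and 0 had an unadjusted p under 0.05. At that background the count of 0 says nothing particular about Hox genes. For both SRA comparisons the study reported more changed genes than the probe sets that passed here, and the reason was not tested. The median difference was -0.02 on the log2 scale against 0.02 for all probe sets, and single genes ranged from -0.37 for Hoxb6 to 0.19 for Hoxc10. The 95% intervals reached from -0.80 for Hoxb6 to 0.78 for Hoxa5. The arrays of the groups did not overlap for 4 genes, with Hoxa9 higher and Hoxb2, Hoxc8 and Hoxd11 lower with shSRA, beside 9.37% of all probe sets. Hoxb2 differed by -0.27 (unadjusted p = 0.079 in limma) and did not pass. Its 95% interval does not cross 0, and the intervals come from the fit to all probe sets whereas the p comes from the fit to those above the variance minimum. Replicate numbers paired the 3T3-L1 arrays, and with the number as a block 101 probe sets passed in place of 14 but again 0 Hox genes. Hoxd8 and Hoxd9, the Hox genes with the largest excess in this line, differed by 0.01 and 0.02 with the knockdown.

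**Figure D4:**
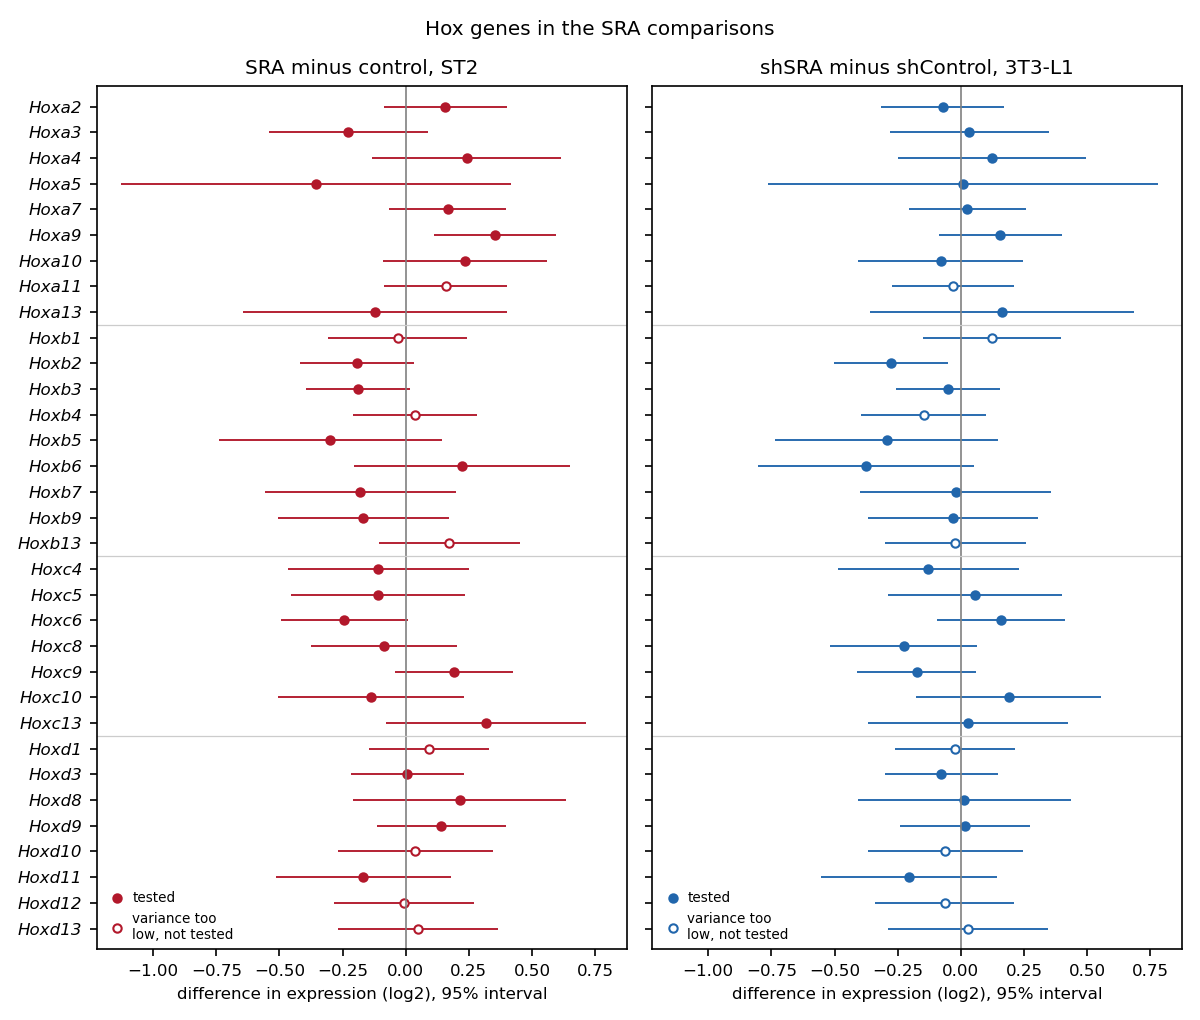
Difference in expression (log2, with 95% confidence intervals) of each Hox gene in SRA minus control ST2 adipocytes on the left and in shSRA minus shControl 3T3-L1 adipocytes on the right, with open points for the 8 genes whose variance was too low to be tested. All points lie between -0.37 and 0.35, and the interval of Hoxa9 in ST2 and that of Hoxb2 in 3T3-L1 adipocytes do not cross 0.

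In ST2 adipocytes none of the measured TALE partners, Polycomb, trithorax, upstream patterning, noncoding and flanking genes passed with SRA, beside 7.98% of the probe sets tested, and the difference in share was not tested. Of 43 other positional genes 1 passed, Prrx2, a limb mesenchyme gene that was lower with SRA, by -0.55 on the log2 scale (limma adjusted p = 0.0362). It no longer passed when any one of 5 of the 6 arrays was left out. Without replicate 2 of the controls 6 positional genes and 1 TALE gene were lower, in a fit where 2248 probe sets passed in place of 1522. A share near that of all probe sets in the same fit is no result about a list. Of 16 retinoic acid genes 2 passed, Rdh10 at -0.81 and Rarg at -0.59, and neither passed without replicate 1 of SRA ST2. Rarg also did not pass without replicate 2 or replicate 3 of SRA ST2 or without replicate 3 of the controls. Over the same arrays all 7 mitotic genes, 5 of 11 preadipocyte and fibroblast markers and 4 of 10 bone marrow stroma markers were lower with SRA, 2 of 9 adipocyte markers were higher, and no blood cell or endothelial marker passed. The marrow stroma count was 2 without replicate 2 of SRA ST2, and the adipocyte count was 4 without replicate 1 of the controls. The shares of all probe sets that passed in these fits are not given here, so the changed counts are no result about the lists. In 3T3-L1 adipocytes, where 0.0734% of the probe sets passed, Sra1 and Lum, a matrix proteoglycan at -1.57, were the genes of all these lists that passed, and Lum no longer passed when any one of 4 of the 6 arrays was left out.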

How the data were processed

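The deposited values are log2 expression values, 1 per probe set and array, which the authors made with RMA in affy (background correction, quantile normalization and summary of probes). No versions are given in the sources used here for their tools. The array's platform annotation gave 1 gene symbol for 34958 of 45101 probe sets, several symbols for 932 and no symbol for 9211. The members and lists were chosen with earlier results of these data known. The Hox genes were selected by name, 1 probe set each.

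From these values, limma 3.58.1 in R 4.3.3 fitted the means of the 4 groups with 1 spread per probe set and moderated tests, Benjamini-Hochberg adjusted at 0.05. Each SRA comparison used the 19068 probe sets whose variance over the 12 arrays exceeded 0.05, as the study's methods state, and the comparisons of the lines used all probe sets, because that filter selects for differences between lines. Confidence intervals are 95% intervals from the fit to all probe sets. The steps were tested on simulated data. Full values per array are given for the 10 Hox genes with the largest passing difference between the control lines, and from each list up to 4 passing genes per comparison could be named. Genes such as Hoxa5, Hoxb5 and the second probe sets were added after their values were seen. The labels call the replicates biological, and p-values measure the spread between such cultures. The number of arrays limits the precision. Deviations of arrays with the same replicate number correlated at 0.59, 0.59 and 0.38 in 3T3-L1 and at 0.04, 0.27 and 0.53 in ST2 adipocytes. The highest correlations with another number in ST2 were 0.20, 0.21 and -0.17, so only replicate 1 lay below its own. The numbers were taken to pair the arrays in 3T3-L1, and pairing in ST2 is not settled. The main tests leave pairing out in both lines, and the replicate block is given as an alternative. The 3 probe sets annotated to several Hox genes were not used. The alternatives tried were the replicate block, no variance filter and the filter in all comparisons, each array left out, other probe set rules, other scalings, another spread estimate, a nested F classification and the arrays of 1 line alone. Leaving out each array for the gene lists, and giving each Hox gene without replicate 2 of the ST2 controls, were alternatives chosen after seeing the data.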

Additional observations from a re-analysis of the deposited data

How the results depend on the processing

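In the SRA comparison in ST2 adipocytes, 0 Hox genes were lower as reported, and the count was 1 without replicate 2 of the ST2 controls (Hoxb5), 1 when the probe sets of each gene were averaged (Hoxb3) and 1 with the probe set of highest variance (Hoxb3). Leaving out each array in turn gave 0 to 1 lower and 0 to 0 higher Hox genes there and 0 to 0 in either direction in 3T3-L1 adipocytes. It gave 12 to 13 higher and 7 to 8 lower in the comparison of the control lines and 12 to 12 higher and 5 to 6 lower in that of the perturbed groups. With the replicate number as a block in the SRA comparisons the counts of Hox genes were 0 in ST2 and 0 in 3T3-L1 adipocytes. Over all probe sets the block gave 3023 calls in ST2 and 101 in 3T3-L1 adipocytes against 1522 and 14, the nested F classification gave 1008 and 90, and leaving out replicate 2 of the ST2 controls gave 2248 and 11. No call of a Hox gene between the lines changed direction. Hoxa2 no longer passed between the control lines when arrays were centred on bright probe sets (-0.37, limma adjusted p = 0.0577), and Hoxa4 no longer passed between the perturbed groups under 5 alternatives. Hoxa3 and Hoxd10 each passed between the control lines without 1 array, and Hoxc5 passed there under 3 alternatives. The cause of these changes was not tested. Levels under the reference level limit what the arrays can show for 22 of the 33 genes, 13 of them in both lines.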
